A study of Mus musculus with 2 samples.

Results

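Cycling neutrophil precursors made up 167 of the 20504 CD45+ spinal cord cells kept from 4 mice with experimental autoimmune encephalomyelitis (EAE), a model of multiple sclerosis in which immune cells enter the spinal cord. They were chosen by their measured counts: at least 1 count of Fcnb, at least 1 count of Mki67 and Top2a together, 0 counts of Kit, Cd3d, Cd3e, Cd3g, Cd79a and P2ry12, and at most 20% of counts from mitochondrial genes. Fcnb (ficolin B) and Chil3 (a chitinase-like protein) are genes of early neutrophils, and Mki67 and Top2a are genes of dividing cells. Kit marks earlier progenitors, the Cd3 genes mark T cells, Cd79a marks B cells and P2ry12 marks microglia. CD45 is the surface protein shared by leukocytes and microglia. All 4 mice were C57BL/6, all had EAE, and the cells were taken at day 15. Per the labels 2 mice were untreated and 2 were inhibitor-treated, each mouse with its own antibody hashtag. The sources used here give neither the name, target, dose or schedule of the inhibitor nor the age or sex of the mice.

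Neutrophils arise in the bone marrow, where dividing promyelocytes and myelocytes fill their granules in a fixed order. Primary granules, with myeloperoxidase and neutrophil elastase, are made first, secondary granules with lactoferrin and cathelicidin next, and tertiary granules with gelatinase last. Division stops at about the time the secondary granule genes are at their highest, and the cells then gain the receptors of the mature neutrophil. During EAE, neutrophils and their immature forms enter the spinal cord with the other infiltrating cells.

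The genes that define these cells lie apart in the genome. In the RefSeq annotation of GRCm38.p6, Fcnb spans positions 28076479 to 28084910 of chromosome 2, Chil3 106147554 to 106167564 of chromosome 3, Mki67 135689784 to 135716450 of chromosome 7 and Top2a 98992947 to 99024199 of chromosome 11. The promoters of Fcnb, Mki67 and Top2a are shown because the gate rests on their transcripts. Each runs 5′ to 3′ on the minus strand, from 250 bases before to 50 bases after the first listed start, at chr2:28084829-28085128, chr7:135716330-135716629 and chr11:99024140-99024439. Capitals mark matches, on either strand, to 3 motifs whose matches did not overlap each other. The CCAAT box is found before many cell cycle genes. The CHR, searched here by its core TTTGAA, is an element of many mitosis genes. The core GAGGAA is bound by PU.1, a myeloid transcription factor.
Fcnb: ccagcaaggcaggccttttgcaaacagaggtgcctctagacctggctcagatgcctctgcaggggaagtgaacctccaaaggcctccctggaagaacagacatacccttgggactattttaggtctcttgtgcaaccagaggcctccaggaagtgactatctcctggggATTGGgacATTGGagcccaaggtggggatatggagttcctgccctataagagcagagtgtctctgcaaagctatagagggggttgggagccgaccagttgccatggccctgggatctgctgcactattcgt
Mki67: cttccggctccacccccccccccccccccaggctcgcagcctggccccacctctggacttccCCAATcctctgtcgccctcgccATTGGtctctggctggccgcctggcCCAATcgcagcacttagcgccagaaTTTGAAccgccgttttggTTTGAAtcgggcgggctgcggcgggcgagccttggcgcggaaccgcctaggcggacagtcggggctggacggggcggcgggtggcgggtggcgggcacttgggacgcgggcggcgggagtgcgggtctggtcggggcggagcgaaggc
Top2a: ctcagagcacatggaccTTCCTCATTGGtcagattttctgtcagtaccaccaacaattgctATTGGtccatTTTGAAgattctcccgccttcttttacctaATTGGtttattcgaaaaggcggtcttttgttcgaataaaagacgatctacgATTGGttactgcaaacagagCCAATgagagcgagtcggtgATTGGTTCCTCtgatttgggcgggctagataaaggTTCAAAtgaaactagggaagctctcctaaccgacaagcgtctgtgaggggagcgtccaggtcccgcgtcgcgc
Mki67 held 3 CCAAT boxes and 2 CHR cores, and Top2a held 6 and 2, with 2 PU.1 cores. Fcnb held 2 CCAAT boxes and none of the other motifs in this window. Of 27025 promoters of this length, 37.9% held a CCAAT box, 18.1% a CHR core and 28.3% a PU.1 core. Among mitosis genes with a promoter in the table, 21 of 25 held a CCAAT box and 19 a CHR core. Among DNA replication genes, 14 of 24 held a CCAAT box and 3 a CHR core. The PU.1 core was in 7 of 9 primary granule and 8 of 13 secondary granule promoters. These matches are descriptions of sequence and were not tested.

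The precursors numbered 19 and 36 in the untreated mice and 70 and 42 in the inhibitor-treated mice. Summed over these cells, the untreated mice had 521299 and 1051452 counts and the treated mice 1924455 and 1088830. The median precursor held 23042 counts and 2719 genes, while the median of all kept cells was 8662 counts. The mice are separate animals on 1 run, and no barcode occurred under more than 1 hashtag name. Of 430 cells with Fcnb and a cycling gene, 263 were left out by the conditions on 0 counts, most often for Cd3d, which 117 of the 430 had. The cells left out were deeper, with a median of 34259 counts. Among 3723 columns that carried several hashtags, 31 passed the same gate (0.833%), and a doublet score would have removed 5 of the 167 precursors. The part of doublets in the results was not tested beyond leaving out cells by this score. These were the 5 precursors and, among others, 2 of 75 Fcnb-positive cells without a cycling gene.

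The label held for most members. By the gate all 167 had Fcnb, with a median of 25 counts and a range from 5 to 217. Fcnb is among 44 genes with no nonzero count below 4 in the deposited matrix, so a value of 0 of such a gene is given as listed at 0. The sum of Mki67 and Top2a had a median of 30 and ranged from 1 to 164, with 6 cells at 1 and 75 otherwise like cells at 0. At the other edge of the gate, 2 members had 5 counts of Fcnb. Chil3, which the gate did not use, was listed above 0 in 161 members with a median of 221 counts. S100a8 and S100a9, the calprotectin subunits of neutrophils, were both above 0 in 159. In 445 cells that had both and otherwise passed the gate, Fcnb was listed at 0. Among cells gated as T cells, 0.883% of 5322 had Fcnb, at a median depth of 10958 counts. Among those with S100a8 and S100a9 at 0 it was 0.0983% of 5089, at 10662 counts, while Ngp was in 75.7% of the same cells. Since Fcnb has no nonzero count below 5 in the matrix, lower background counts of it would not be seen.

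A few members did not match the label. In 7 of 167 cells, at least 5 of 6 monocyte genes (Ccr2, Csf1r, F13a1, Fn1, Ms4a6c and Ly86) were detected, a set chosen after the values were seen. They were 1 of 19 and 2 of 36 cells in untreated mice and 2 of 70 and 2 of 42 in treated mice. In these 7 cells Camp was at 568 CPM (summed counts scaled to a total of 1000000) and Ltf at 138, against 34800 and 11422 CPM in members without Elane or Mpo. F13a1 was at 2183 CPM, Ccr2, a monocyte chemokine receptor, at 1455 and Ms4a6c at 1583, against 3.11, 3.11 and 1.86 CPM. These genes were among the 6 that picked the cells, so their higher level follows from that choice. Fcnb was lower in them, at 372 against 1337 CPM. Chil3 was listed above 0 in all 7, at 8217 against 10181 CPM, so it did not set them apart. They are called monocyte-gene cells below.

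The shares of precursors were set beside the treatment, which the gate did not use. The precursors were 0.402% of kept cells in untreated mouse 1 (95% Wilson interval 0.258 to 0.627, 19 of 4723) and 0.726% in untreated mouse 2 (0.525 to 1.00, 36 of 4956). They were 1.24% in inhibitor mouse 1 (0.981 to 1.56, 70 of 5654) and 0.812% in inhibitor mouse 2 (0.601 to 1.10, 42 of 5171). Both treated mice lay above both untreated mice, but only the intervals of untreated mouse 1 and inhibitor mouse 1 were apart. The means were 0.564% ± 0.229 and 1.03% ± 0.301 (SD, n = 2), a difference of 0.461 percentage points (two-sided exact permutation p = 0.33, the smallest that 2 against 2 mice allow). The intervals cover counting error only.

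**Figure D1:**
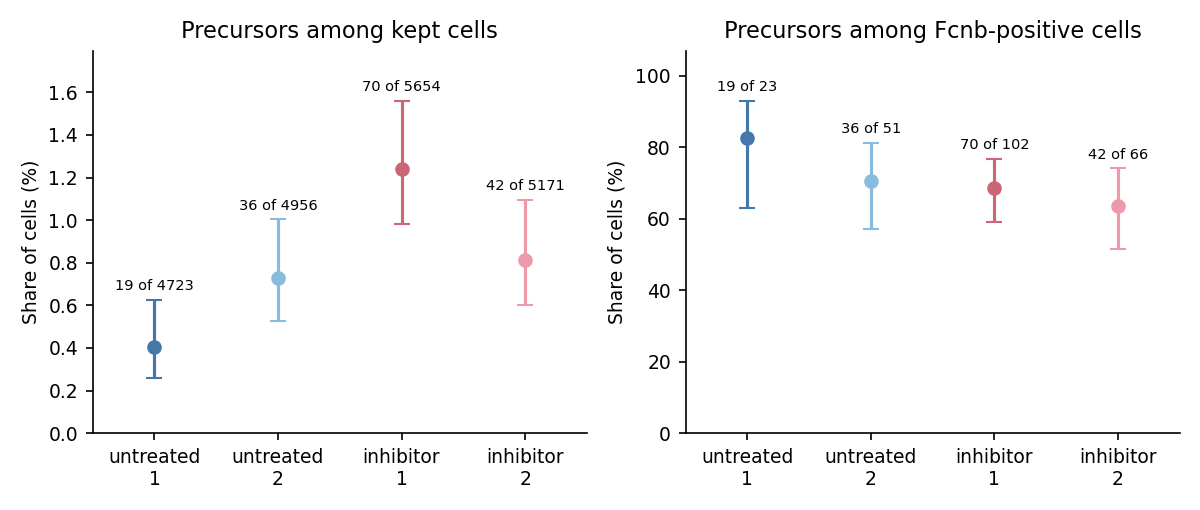
Share of cycling neutrophil precursors in each mouse, in percent of all kept cells (left) and of Fcnb-positive cells (right); points are shares, bars are 95% Wilson intervals and labels give cells. Both treated mice lie above both untreated mice on the left and below them on the right.

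The direction depended on the denominator. Cells with S100a8 and S100a9 were 15.4% and 11.8% of kept cells in untreated mice and 42.3% and 24.9% in treated mice. Of these neutrophil-gated cells, precursors were 2.48% and 5.66% in untreated and 2.84% and 3.11% in treated mice. The untreated mice lay on both sides of the treated ones, and the mean difference was -1.09 percentage points (exact permutation p = 1). Among the Fcnb-positive cells, which met the rest of the gate with or without a cycling gene, 19 of 23 and 36 of 51 were precursors in untreated mice, or 82.6% and 70.6%. The treated mice had 70 of 102 and 42 of 66, or 68.6% and 63.6%. The groups did not overlap, with means of 76.6% ± 8.50 and 66.1% ± 3.53 (SD, n = 2; difference -10.5 points, exact permutation p = 0.33), but the Wilson intervals of all 4 mice overlapped.

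Granule and calprotectin genes were among the highest in the precursors. The 10 genes with the highest mean CPM were S100a9, S100a8, Ngp, Camp, Lcn2, Actb, Tmsb4x, Lyz2, Ltf and Chil3. S100a9 stood at 86367 and 87434 CPM in the untreated and 97005 and 90021 in the treated mice. Camp, the cathelicidin precursor, stood at 36131 and 25610 against 33030 and 34923 CPM. These are summed counts, not corrected for transcript length, so levels are compared between populations and not between genes.

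For comparison, 3 other populations from the same mice are described. Progenitors with Mpo and Kit were gated too, but they numbered 12 (2 and 1 in untreated, 2 and 7 in treated mice). Their levels are not given here. The non-cycling Fcnb-positive cells (75 cells) met the gate except that Mki67 and Top2a were at 0. The immature neutrophils (1187 cells) had Ltf and Camp and lacked Fcnb, Mki67, Top2a and Kit. The mature neutrophils (227 cells) had Mmp8 and lacked Ltf, Camp, Cxcl2 and those same 4 genes. Since the gates were set on the genes of these cells, the levels below are descriptions with no test. The non-cycling cells were few in untreated mouse 1, where 4 cells gave 61225 counts, so single values there are uncertain.

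Primary granule genes, the earliest of the series, summed higher in the precursors than in the non-cycling and immature cells of each mouse. Their 10 genes summed to 927 and 6101 CPM in untreated and 1507 and 3593 in treated mice, against 24.6 to 55.7 CPM in the immature cells. In the non-cycling cells the sum ranged from 50.2 to 618 CPM. Of the 10 genes, 6 were higher in precursors than in non-cycling cells in all 4 mice, beside 30.2% of 7647 genes, and 8 were higher than in immature cells, beside 40.4%. Prtn3 (proteinase 3) was detected in 101 precursors (60.5%, Wilson 52.9 to 67.6), 13.3% of non-cycling cells and 5.64% of immature cells, the last close to the 5.46% of T cells without S100a8 and S100a9. Median depths were 23042, 14448, 11270 and 10662 counts in that order. Ms4a3, a gene of granulocyte and monocyte progenitors, was listed above 0 in 37.1% of precursors and 0.253% of immature cells. It has no nonzero count below 5 in the matrix, so lower counts would not be seen.

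Elane (neutrophil elastase) stood at 167 and 2058 CPM in untreated and 421 and 970 in treated mice. Mpo (myeloperoxidase) was at 72.9 and 1001 against 227 and 752 CPM. Both were listed above 0 in a minority, Elane in 25.1% and Mpo in 8.38% of precursors, and single cells carried much of the sums. The matrix has no nonzero count below 6 for Elane or below 18 for Mpo, so lower counts of them would not be seen. One cell of untreated mouse 2 held 1543 of that mouse's 2164 Elane counts, and 1 held 800 of its 1053 Mpo counts. In untreated mouse 1 only 1 cell had Mpo. The order of the mice in these genes therefore rests on few cells.

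Secondary granule genes summed higher than in the immature cells and lower than in the non-cycling cells of each mouse. The 14 genes summed to 138961 and 121699 CPM in untreated and 135192 and 136090 in treated mice, against 105469 to 121066 CPM in immature cells and 156906 to 176856 in non-cycling cells. Camp in the precursors was 2.15 times its pooled level in immature cells, and Ngp, neutrophilic granule protein, 1.25 times. Chil3 was 4.24 times as high, at 10692 and 7793 against 9290 and 10210 CPM in the precursors. Ltf (lactoferrin) went the other way, at 9829 and 9961 against 9467 and 8730 CPM in precursors, compared with 10124 to 13560 CPM in the immature cells, which were gated on it. Beside non-cycling cells 9 of the 14 genes were lower in precursors in all 4 mice, where 5.36% of 7647 genes were. Beside immature cells 3 were higher and 9 lower in all 4 mice, where 40.4% and 15.9% of 7647 genes were. The higher sum than in immature cells was thus not shared by most of the 14 genes.

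Genes of later stages were low. The 17 tertiary granule and mature neutrophil genes summed to 4207 and 3778 CPM in untreated and 3345 and 1924 in treated mice, and all 17 were below the immature cells in all 4 mice, beside 15.9% of 7647 genes. Mmp9 (gelatinase B) was at 219 and 156 against 176 and 53.3 CPM, and at 3041 to 3738 CPM in immature cells. Cxcr2, the chemokine receptor for release from the marrow, was at 201 and 93.2 against 114 and 100 CPM in precursors and 901 to 1123 in immature cells. Retnlg, a resistin-like gene of mature neutrophils, was at 1740 and 1309 against 896 and 157 CPM, compared with 20218 to 31808 CPM in immature cells. Ly6g, the surface antigen used to sort neutrophils, was present in 87.4% of precursors, at 466 and 560 against 430 and 478 CPM, below the 1678 to 1992 CPM of the immature cells.

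**Figure D2:**
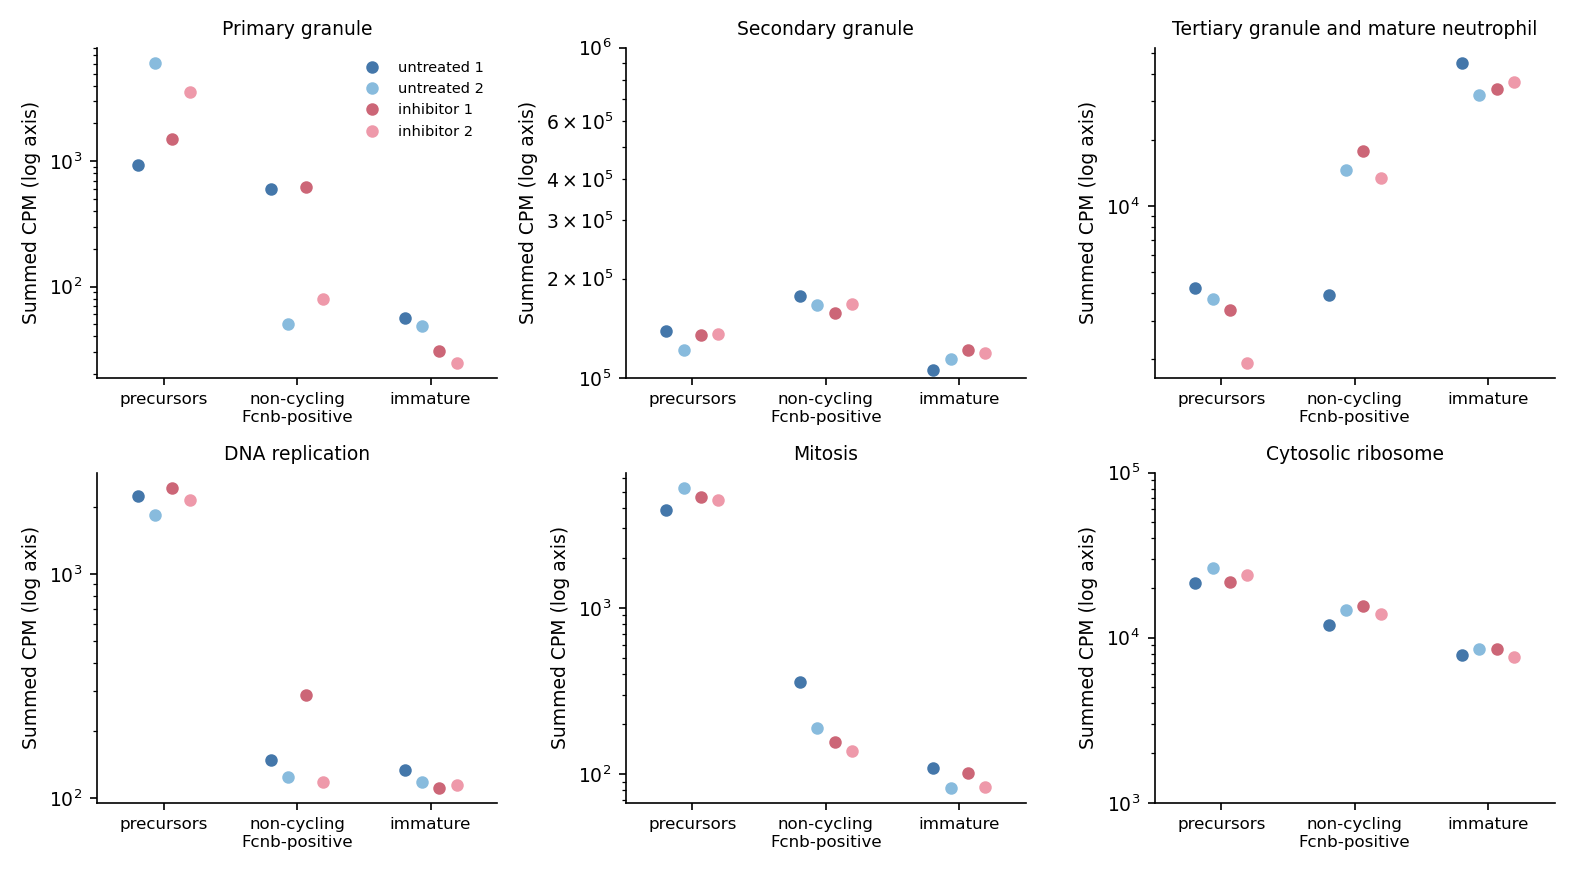
Summed level of 6 gene lists (CPM, log axis) in precursors, non-cycling Fcnb-positive cells and immature neutrophils, with 1 point for each mouse. Primary granule, replication, mitosis and ribosome genes are highest in precursors, and the tertiary and mature genes are lowest there except in untreated mouse 1, whose 4 non-cycling cells lie beside them.

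Among factors of granulopoiesis, Cebpe was the most widely detected of those named here. Cebpe, a factor needed for secondary granules, stood at 675 and 579 CPM in the untreated mice and at 700 and 537 in the treated, against 205 to 262 CPM in the immature cells, and in 90.4% of precursors against 44.6%. Gfi1, a repressor needed for neutrophil formation, was in 18% of precursors and 1.6% of immature cells. Myb, a factor of dividing progenitors, was in 38.3% and 9.10%, and Cbfb, the partner of the Runx factors, in 49.1% and 12.7%. Gata2 and Mycn had no count in any precursor, and Hoxa9 was in 1 cell (0.599%). The immature cells were shallower, at a median of 11270 against 23042 counts. Of the 20 factors 8 were higher than in immature cells in all 4 mice, where 40.4% of 7647 genes were. Beside non-cycling cells 4 were higher and 1 lower in all 4 mice, where 30.2% and 5.36% of 7647 genes were. The 20 factors summed to 2170 and 1977 CPM in untreated and 2108 and 1990 in treated precursors. In non-cycling cells they summed to 2532 and 1618 against 2134.5 and 1976 CPM.

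The cell cycle genes that the gate did not use were high throughout. The 28 DNA replication genes summed to 2227 and 1841 CPM in untreated and 2431 and 2148 in treated mice, against 111 to 133 CPM in immature cells. The 30 mitosis genes summed to 3896 and 5277 against 4665 and 4416 CPM, and to 82.8 to 108 CPM in immature cells. Of the replication genes 25 of 28, and of the mitosis genes 29 of 30, were higher than in non-cycling cells in all 4 mice. The share over all 7647 genes was 30.2%. Pcna, the replication clamp, was in 71.3% of precursors, Rrm2, a subunit of ribonucleotide reductase, in 71.3%, and Cdk1, the mitotic kinase, in 70.7%. Stmn1 (stathmin) stood at 725 and 712 against 749 and 709 CPM, and Tuba1b, an alpha-tubulin, at 936 and 1118 against 966 and 1063 CPM. Both lay in a narrow range over the 4 mice.

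Among genes with at least 50 CPM in precursors in each mouse and above the non-cycling cells in all 4, the largest pooled ratios were in Mki67 and Top2a, which the gate set to 0 in those cells, and in 8 others. Of these 8, Cdca3, Cdk1 and Ccna2 had 1038, 864 and 785 counts against 0, at least 95.6-fold, 79.5-fold and 72.3-fold higher against a floor of 3 counts over the group. H2ax, the histone variant marked at DNA breaks, had 1821 counts against 3, Tpx2 1061 against 1 and Prc1 941 against 2. The histones H2ac7 and H2ac12 had 1073 and 1023 against 3 each, and as near-identical genes they could share reads. In the other direction, Mmp9 was 9.29-fold, Il1b 6.89-fold and Ypel3 5.85-fold higher in non-cycling cells. The other 7 of those 10 genes (Acvrl1, Timp2, Ndst1, Cxcr2, Adam8, Plek and Prr13) were 3.77-fold to 5.36-fold higher.

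Genes of cell cycle exit were mixed. Cdkn2c, an inhibitor of the cyclin D kinases, was at 57.5 and 48.5 against 56.1 and 45.0 CPM in precursors, had no count in non-cycling cells and was at 0.507 to 2.34 CPM in immature cells. Ccnd3 was at 620 and 594 against 553 and 543 CPM, near the 571 to 613 CPM of the immature cells. Ccnd1 and Ccnd2, the other D cyclins, were at most 1.04 and 5.71 CPM. Btg1, an antiproliferative gene, was at 269 and 176 against 183 and 135 CPM in precursors and at 402 to 451 in immature cells.

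The translation machinery also stood higher. The 27 cytosolic ribosomal protein genes summed to 21556 and 26453 CPM in untreated and 21765 and 23953 in treated mice. The immature cells had 7634 to 8575 CPM and the non-cycling cells 12005 to 15573. All 27 were higher in precursors than in immature cells in all 4 mice, and 25 were higher than in non-cycling cells. The shares over all 7647 genes were 40.4% and 30.2%. Glycolysis genes did not follow, with 6579 to 7492 CPM in precursors and 8556 to 8977 in immature cells. Inflammatory genes summed lower than in immature cells, at 1557 to 1740 CPM for the 15 listed against 3926 to 5383. Beside immature cells 0 of the 15 were higher and 5 lower in all 4 mice, where 40.4% and 15.9% of 7647 genes were. Beside non-cycling cells 2 were higher and 1 lower, where 30.2% and 5.36% of 7647 genes were. In untreated mouse 1 the sum was 1590 CPM in precursors and 1192 in non-cycling cells. In the other mice the non-cycling cells had the higher sum. Il1b, the interleukin-1 beta gene, was in 14.4% of precursors.

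The precursors differed among themselves in their granule genes. Leaving out the 7 monocyte-gene cells, 40 cells (24.0% of 167) had Elane or Mpo listed above 0 and 120 (71.9%) had neither. The first kind was 5 of 19 and 11 of 36 cells in untreated mice (26.3% and 30.6%) and 12 of 70 and 12 of 42 in treated mice (17.1% and 28.6%), so the groups overlapped. Cells with Elane or Mpo had 3388 CPM of Prtn3 against 146, and 748 CPM of Cd63, a granule membrane protein, against 349. They had less Ltf, at 5538 against 11422 CPM, less Lcn2 (lipocalin 2), at 11418 against 18903, and less Retnlg, at 316 against 1174. Myb was at 109 against 51.9 CPM, Fcnb at 2513 against 1337 and Mki67 at 775 against 880. The split used Elane and Mpo, whose low counts would not be seen in this matrix, and no test was made.

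Cell cycle position varied as well. With each cell thinned to 3000 counts, which kept 166 of 167, the median was 5 replication counts and 14 mitosis counts. Mitosis counts exceeded replication counts in 112 of 166 cells (67.5%, Wilson 60.0 to 74.1), in 63.2% and 77.1% of cells in the untreated and 61.4% and 71.4% in the treated mice. The groups overlapped. No mitosis count was left in 9 cells and no replication count in 23. Across the 166 cells, primary and secondary granule counts had a Spearman rho of -0.54, and -0.36, -0.62, -0.43 and -0.68 within the 4 mice in turn. These are descriptions across cells that share mice and 1 run, and both sums are parts of the same 3000 counts. For replication and mitosis rho was -0.24, and it was 0.41 in untreated mouse 1, so no relation is read from it.

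**Figure D3:**
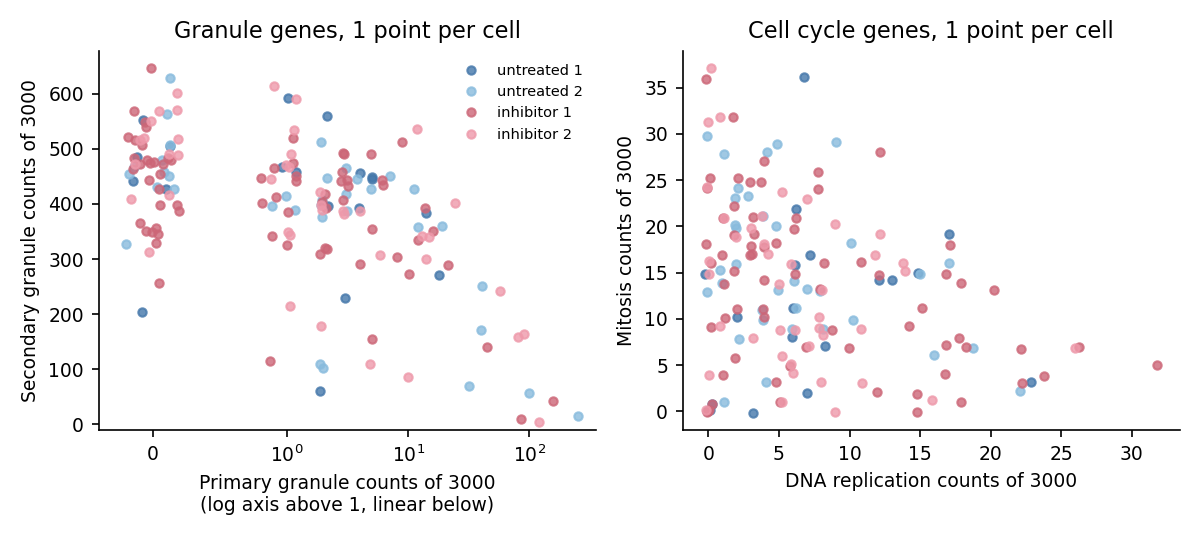
Counts of granule genes (left) and cell cycle genes (right) in each of 166 precursors thinned to 3000 counts, with small random shifts to separate points; colours are mice. The cells with most primary granule counts have few secondary granule counts, and cells of all 4 mice are spread over both cell cycle axes.

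Markers of other cell types were low over the whole sums. T cell markers, with Cd3d, Cd3e and Cd3g at 0 by the gate, summed to 54.2 to 61.4 CPM, and 8 of 11 had some count. Trac, the T cell receptor alpha constant gene, was in 18.6% of precursors and 11.0% of immature cells, which were shallower. B lineage markers summed to 49.6 to 92.1 CPM, with 9 of 13 detected and Cd79a, Jchain, Vpreb1 and Igll1 at 0. Microglia markers summed to 99.9 to 270 CPM with P2ry12 at 0 by the gate, and 5 of 11 erythroid markers were detected at 18.4 to 69.1 CPM, with all 4 haemoglobin genes listed at 0. Monocyte and macrophage markers were at 890 and 928 CPM in untreated and 309 and 441 in treated mice, with all 15 detected. The monocyte-gene cells held 347 of the 464 and 838 of the 976 counts behind the untreated values, and 309 of 595 and 311 of 480 behind the treated ones. Without those 7 cells the sums were 238 and 141 CPM in untreated and 153 and 160 in treated mice, and the groups overlapped.

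The inhibitor comparison asked which genes differed within the precursors. Counts were summed per mouse and 7647 genes were tested with edgeR's quasi-likelihood test. No gene passed a Benjamini-Hochberg adjusted p of 0.05 (0 of 7647, or 0%). At an unadjusted p below 0.05 there were 311 genes (4.07%). DESeq2, fitted to the same sums, called 3 genes, all lower in treated mice: Ms4a6c, Egr1 and Ly6e. The count of 0 depended on the mice: edgeR called 42 genes without untreated mouse 1, 178 without untreated mouse 2, 8 without inhibitor mouse 1 and 9 without inhibitor mouse 2. The genes below are named by the size of their unadjusted p, 6 in each direction, and none passed the edgeR test over all 4 mice.

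Ms4a6c, a monocyte membrane gene on chromosome 19 (11469353 to 11487182), had the smallest p. It had 94 and 146 counts in untreated and 46 and 25 in treated mice, or 180 and 139 against 23.9 and 23.0 CPM. The fitted log2 fold change was -2.71 (SE 0.36, edgeR adjusted p = 0.104). Nearly all of these counts lay in the monocyte-gene cells: 93 of 94 and 141 of 146 in untreated, and 41 of 46 and 23 of 25 in treated mice. Without those 7 cells too few counts were left to test it. Crip1, a cysteine-rich protein gene, had a log2 fold change of -1.48 (SE 0.32, edgeR adjusted p = 0.758), and 0.056 without those cells.

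Egr1 and Fos, immediate early transcription factors, ranked second and last by p among the 6 on the lower side. Egr1 stood at 276 and 289 CPM in untreated and 99.8 and 82.7 in treated mice, without overlap (log2 fold change -1.59, SE 0.26, edgeR adjusted p = 0.332). Counts were spread over 12 of 19, 28 of 36, 38 of 70 and 24 of 42 cells, and the value without the monocyte-gene cells was -1.59. In immature cells of the same mice Egr1 was at 154 and 237 against 75.1 and 76.0 CPM, and over all kept cells at 1132 and 835 against 568 and 700. Fos was at 836 and 753 against 428 and 473 CPM in precursors (log2 fold change -0.78, SE 0.18, edgeR adjusted p = 1.00), while in immature cells the groups overlapped. Without the monocyte-gene cells its log2 fold change was -0.45. Of 9 tested genes of the heat shock and immediate early list, 8 were negative, with a median of -0.48 beside 0.01 for all genes, and without the monocyte-gene cells 6 were negative with a median of -0.23.

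Ly6e, a surface protein gene induced by interferon, stood at 428 and 415 CPM in untreated and 168 and 189 in treated mice (log2 fold change -1.20, SE 0.22, edgeR adjusted p = 0.384), and -1.26 without the monocyte-gene cells, which held 63 of 223 and 279 of 436 counts in untreated and 144 of 323 and 98 of 206 in treated mice. Over all kept cells Ly6e was at 1467 and 1515 against 717 and 1204 CPM. Ifitm1, an interferon-induced membrane gene, had 262 and 261 counts in untreated and 56 and 0 in treated mice. A single cell held 249 of the 262 and another 220 of the 261, and the matrix has no nonzero count below 5 for it. Its fitted log2 fold change of -4.44 (SE 0.79, edgeR adjusted p = 0.384) thus rests on 2 cells.

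On the higher side, H1f5, a linker histone gene on chromosome 13 (21779832 to 21780625), stood at 40.3 and 33.3 CPM in untreated and 108 and 163 in treated mice. It was detected in 4 of 19 and 11 of 36 against 23 of 70 and 19 of 42 cells. The log2 fold change was 1.92 (SE 0.38, edgeR adjusted p = 0.491), and 2.13 without the monocyte-gene cells. Other linker histones differed less: H1f3 was at 61.4 and 59.0 against 59.8 and 87.2 CPM and H1f4 at 270 and 205 against 180 and 178. These 2 were added after the values were seen. H1f5 had no count in non-cycling cells and at most 0.507 CPM in immature cells.

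Elmsan1, which encodes a component of deacetylase complexes, had 1 and 6 counts in untreated and 88 and 69 in treated mice (log2 fold change 3.67, SE 0.69, edgeR adjusted p = 0.443). It was found in 1 of 19 and 4 of 36 cells against 21 of 70 and 17 of 42. In immature cells it was at 27.2 and 30.9 against 63.3 and 57.5 CPM, and over all kept cells at 42.6 and 40.1 against 48.0 and 43.0 CPM, neither of which was tested. Fbxw8, an F-box gene, had 0 and 2 against 69 and 35 counts. Rfc1, the large subunit of the clamp loader, was at 42.2 and 63.7 against 137 and 140 CPM (log2 fold change 1.39, SE 0.35, edgeR adjusted p = 1.00). Smg9 and Srrm2 completed the 6, at log2 fold changes of 2.17 and 1.16.

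**Figure D4:**
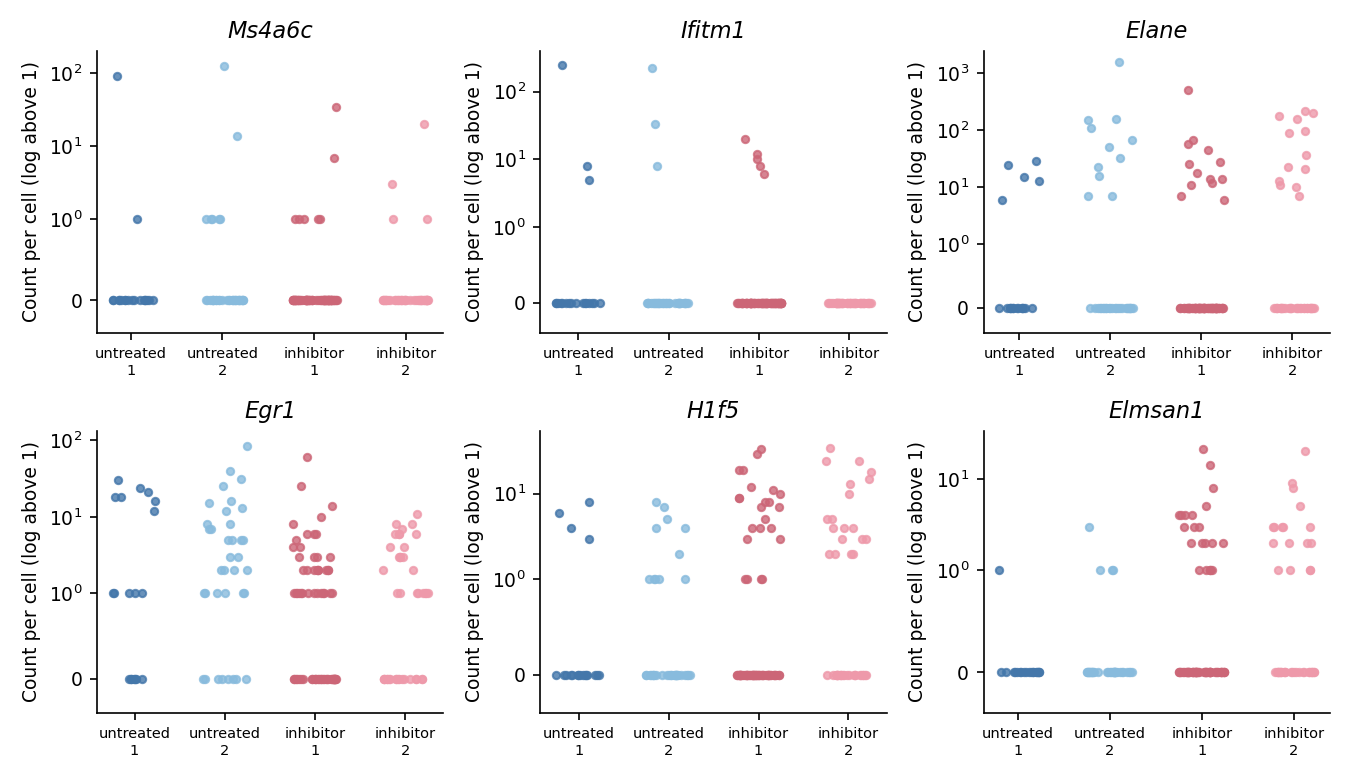
Counts of 6 genes in every precursor of the 4 mice (log axis above 1, linear below), with random sideways shifts. Ms4a6c and Ifitm1 are carried by a few cells, whereas Egr1 is above 0 in 12, 28, 38 and 24 cells, H1f5 in 4, 11, 23 and 19 and Elmsan1 in 1, 4, 21 and 17, in the order of the axis.

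The gene lists gave 0 calls each, beside 0% of all genes. DNA replication genes were positive in 21 of 27 tested, with a median of 0.28 beside 0.01 and 50.5% positive over all genes, and the median was 0.15 without the monocyte-gene cells. The summed CPM of the whole list overlapped between the groups. Mcm6, a helicase subunit, was at 57.5 and 51.4 against 102 and 94.6 CPM (log2 fold change 0.90, SE 0.35, edgeR adjusted p = 1.00), while Rrm2 was negative at -0.44. Of 30 mitosis genes 15 were negative, with a median of 0.03, and without the monocyte-gene cells 11 were, with a median of 0.12. Mitochondrially encoded genes, whose total the gate capped, were positive in 12 of 12 with a median of 0.23, and in all but 1 without those cells. The sums of that whole list overlapped, at 20090 and 26856 CPM in untreated and 24070 and 29620 in treated mice. Primary granule genes were negative in 7 of 9 with a median of -0.56, beside 49.5% negative over all genes. Secondary granule genes were negative in 5 of 14 with a median of 0.06, and in 7 without the monocyte-gene cells. Tertiary and mature genes were negative in 10 of 16 with a median of -0.33, among them Retnlg at -1.47. Monocyte and macrophage markers were negative in 11 of 13 with a median of -0.67. Without the monocyte-gene cells, which were picked by 6 genes of this same list, 6 of those markers could be tested. Of these, 4 were negative and the median was -0.17.

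**Figure D5:**
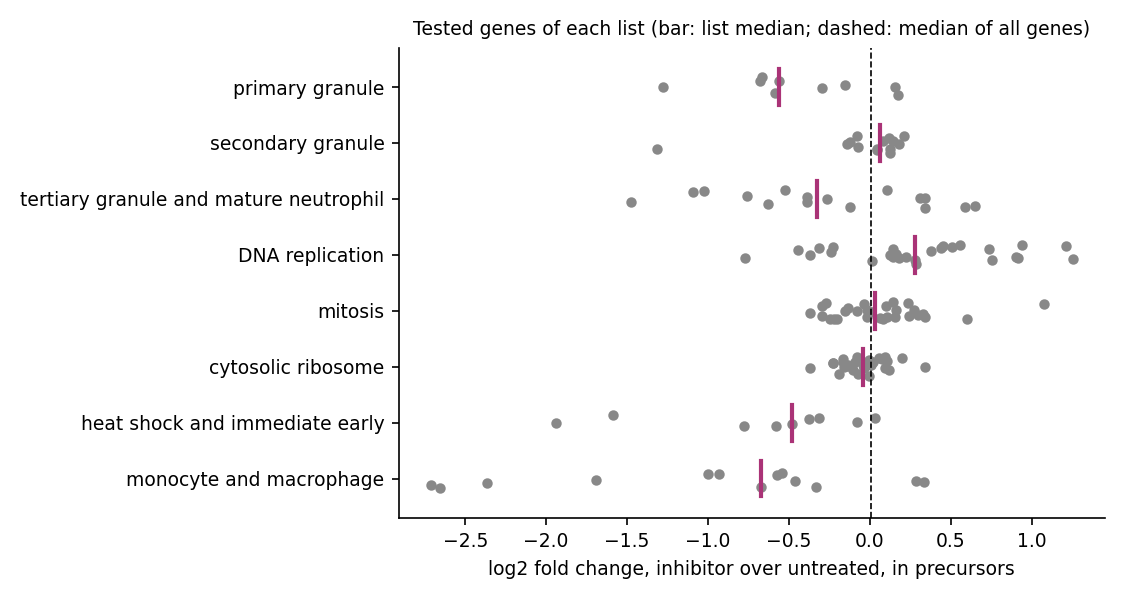
Log2 fold change (inhibitor over untreated, edgeR) of each tested gene of 8 lists in the precursors; purple bars are list medians and the dashed line is the median of all 7647 genes, 0.01. The monocyte and macrophage genes reach furthest to the left, and the ribosome genes lie closest to the line.

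A last comparison tested whether the inhibitor effect in precursors differed from that in non-cycling Fcnb-positive cells, as an interaction with the mouse as a block. In edgeR 7 of 6640 genes passed (0.105%): Retnlg, Mmp8, Ifitm1, Elane, S100a6 and Olfm4 with a lower and Smc2 with a higher effect in precursors. DESeq2 called 0, with 224 genes at an unadjusted p below 0.05, against 267 in edgeR. Leaving out doublet-scored cells removed 2 of the 15 non-cycling cells of untreated mouse 2. The difference for Smc2 was then 0.079, and Smc2 was not called. Mmp8 (-2.89, edgeR adjusted p = 0.061) and S100a6 (-2.00, edgeR adjusted p = 0.053) were not called either. Retnlg was at 1740 and 1309 against 896 and 157 CPM in precursors and at 212 and 7332 against 11034 and 6444 in non-cycling cells (difference of log2 fold changes -4.55, SE 0.48, edgeR adjusted p = 1e-17). The low value of 212 came from 13 counts in the 4 non-cycling cells of untreated mouse 1. Without that mouse the difference was -1.86, and without untreated mouse 2 it was -7.82. Without the conditions on 0 counts it was -0.47 (edgeR adjusted p = 1.00). S100a6, a calcium-binding protein gene, was at 568 and 1057 against 640 and 320 CPM in precursors and at 196 and 3583 against 3532 and 2020 in non-cycling cells. Elane, Olfm4 and Smc2 each had 2 or more non-cycling sums at 0, so their fitted differences are not sizes. Ifitm1 had a precursor sum at 0 and Mmp8 a non-cycling sum at 0, so theirs are not read as sizes either. These calls rest on few non-cycling cells: the number of genes called was 27 without untreated mouse 1, 146 without untreated mouse 2, 3 without inhibitor mouse 1 and 4 without inhibitor mouse 2.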

How the data were processed

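Single CD45+ cells of 2 untreated and 2 inhibitor-treated mice were measured on 1 BD Rhapsody run, per the labels' protocols, and each cell was assigned to its mouse by the hashtag in its column name. The authors deposited whole-number counts for 28482 genes in 25461 columns with no normalization, after an error-correction step per the file's name. The sources used here do not say if counts are of molecules or reads, which aligner was used or whether strand was. The submitters' processing notes name GRCm38. Of 21518 cells with 1 hashtag, 20504 with at most 20% mitochondrial counts were kept. Their counts per mouse ranged from 57921356 to 66287014.

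The gate was applied to the deposited counts, and sums per mouse were tested with edgeR 4.0.16 (filterByExpr, TMM, glmQLFit, glmQLFTest, Benjamini-Hochberg over all genes tested), with DESeq2 1.42.0 as an alternative (R 4.3.3, python 3.11.15). Both were run on simulated counts for the inhibitor effect, and edgeR alone for the interaction. The simulated spread between mice was set and not taken from these data, so these runs check the code only. Shares were compared by exact permutation over mice. Named genes are the gate genes and Chil3, members of the gene lists, the 6 smallest unadjusted p in each direction, the 10 largest ratios to non-cycling Fcnb-positive cells in each direction and the 10 highest genes. Others are said to be chosen after their values were seen, and the 7 interaction calls are named because they are few. The members and lists were chosen with earlier results of these data known. Of the list genes, 3 histone variants were matched through RefSeq synonyms. Doublets of 1 mouse could not be seen by hashtag and were scored by neighbouring hashtag doublets, and those cells were left out only as an alternative. Promoters are those of RefSeq, GRCm38.p6. Alternatives were the gate, the mitochondrial limit, thinned cells, doublet scores, scaling, the low-count filter, the replicate block and leaving out each mouse. The hashtag library was not analysed here.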

Additional observations from a re-analysis of the deposited data

Results flagged for a closer look

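The test of a difference between the inhibitor effects in precursors and in non-cycling Fcnb-positive cells gave 7 genes at an adjusted p below 0.05 in edgeR and 0 in DESeq2. The fitted edgeR differences on the log2 scale were -4.55 for Retnlg, -4.73 for Mmp8, -5.58 for Ifitm1, -9.74 for Elane, -2.32 for S100a6, -10.67 for Olfm4 and 8.35 for Smc2. Elane, Olfm4 and Smc2 had 2 or more non-cycling sums at 0, which set their fitted values, so those values are not sizes of a difference. Ifitm1 had 0 counts in the precursors of inhibitor mouse 2, and Mmp8 had 0 in the non-cycling cells of untreated mouse 1. Without untreated mouse 2 their differences were -15.98 and -14.37, so their values are not read as sizes either. Mmp8 had 66 and 222 counts in untreated and 236 and 6 in treated precursors, and 0 and 182 against 864 and 322 in non-cycling cells. Smc2, a condensin subunit, was at 177 and 226 against 244 and 213 CPM in precursors, and its non-cycling sums held 0, 23, 0 and 0 counts. Olfm4 had 158 and 0 against 123 and 22 counts in precursors, found in 2, 0, 4 and 2 cells.

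Columns that carried several hashtags entered no comparison. Of 3723 such columns within the mitochondrial limit, 31 met the gate of the precursors.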

How the results depend on the processing

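The share of precursors among kept cells differed by 0.461 percentage points and by 0.248 to 0.674 points when single mice were left out, and it turned to -1.09 points as a share of neutrophil-gated cells. It was 0.791 points with cells thinned to 3000 counts and 0.863 points without the conditions on 0 counts. The replicate block gave the same 0.461 points. The share among Fcnb-positive cells differed by -10.5 points, by -16.5 to -4.46 without single mice, by -2.31 without the conditions on 0 counts, an alternative chosen after seeing the data, and again by -10.5 under the replicate block. Both kept their direction under the other gates, the 10% mitochondrial limit, thinning and doublet scores.

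For genes changed by the inhibitor in precursors, 0 in edgeR became 3 in DESeq2, 15 with no filter on low counts, 6 with the replicate number as a block, and 8 to 178 when single mice were left out: 42 without untreated mouse 1, 178 without untreated mouse 2, 8 without inhibitor mouse 1 and 9 without inhibitor mouse 2. Each of these last fits left a group with 1 mouse, assumed to vary like the other group. It stayed 0 under RLE scaling, the stricter gate, the 10% limit, doublet scores, thinning, and, both chosen after seeing the data, without the conditions on 0 counts and without the monocyte-gene cells. The numbers paired no animals, and deviations of same-numbered mice correlated at 0.000712 over 7647 genes. The interaction called 7 genes, 0 in DESeq2, 5 to 8 in the other fits over all mice and 3 to 146 without single mice. No block by replicate number was run for it, since the mouse is its block. Crip1 turned to 0.056 without the monocyte-gene cells. Of 163 values of the 12 genes named by the inhibitor comparison, 124 stayed on their side of the threshold, 38 passed it and that of Crip1 turned. Of 84 for the 7 interaction genes, 57 stayed past it and 27 did not. Depth limited the non-cycling sums, 61225 counts in untreated mouse 1, most of all.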
